A study of Mus musculus with 57 samples.

Results

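The genes of the AMPA and kainate receptor subunits were examined in 3 brain regions, the nucleus accumbens (NAc), the prefrontal cortex (PFC) and the ventral midbrain (VMB), of male C57Bl/6NCrl mice that had all been given a choice between water and ethanol. Members were chosen by gene symbol. They were Gria1, Gria2, Gria3 and Gria4 for AMPA receptors and Grik1, Grik2 and Grik5 for kainate receptors, 7 of the 12393 genes with a probeset of 1 symbol. The array holds 9 of its 22626 probesets for them, with a second probeset for Gria1 and for Gria2. Each region was measured on 19 arrays, each with RNA from 1 animal, for 57 arrays in all. The inbred mice drank from bottles of tap water or 10% ethanol in 16 sessions of 18 h, and tissue was taken 6 days after the last session. No group without ethanol was analysed here, and each mouse's intake was not analysed here, so the values describe subunit levels by region and their variation among drinking mice. The labels name the midbrain tissue ventral tegmental area, and the name VMB follows the study's methods.

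AMPA receptors are the glutamate-gated channels that carry most fast excitatory transmission in the brain. They assemble as tetramers of subunits encoded by Gria1 to Gria4, and the edited Gria2 subunit makes the channel nearly impermeable to calcium. Kainate receptors are related channels on both sides of the synapse that tune transmitter release and excitability. Grik1 and Grik2 encode subunits that can form channels alone, whereas the Grik5 subunit binds kainate with high affinity but needs a partner such as the Grik2 subunit. In NAc and VMB, changes in the subunits of AMPA receptors are a known part of the adaptations to addictive drugs.

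Deposited values are log2 intensities, so a step of 1 is a doubling of signal. Array medians ran from 5.66 to 5.70 for PFC, 5.79 to 5.86 for VMB and 6.26 to 6.32 for NAc, and the median probeset differed by 0.72 between NAc and PFC. Regions were therefore compared after quantile normalization of all 57 arrays together, called the common scale below, on which that median difference was 0.03. Arrays of a region correlated with each other at 0.978 or more. Tissue markers followed the labelled regions. The mean of 9 striatal projection neuron markers lay between 9.54 and 10.05 in NAc and between 6.60 and 7.15 elsewhere. That of 6 cortical excitatory neuron markers lay between 7.98 and 8.25 in PFC and at most at 6.41 elsewhere, and that of 7 dopamine neuron markers between 7.37 and 7.75 in VMB and at most at 6.04 elsewhere. The array titled PFC replicate 20 carries ventral tegmental area in its other labels. It correlated at 0.995 on average with PFC arrays and at 0.955 with VMB arrays, was kept in PFC, and changed no call on a subunit when left out.

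VMB replicates 4, 5, 17 and 19 stood apart from the other 15 VMB arrays. All 4 lay above all 15 for 1005 and below them for 204 of 19815 probesets, 6.1% in all, and this was found after their subunit values were seen. Of 84 measured markers of cell types, Gad2 lay above and Csf1r and Cldn5 below, while the other markers of interneurons, microglia and endothelium overlapped. Any part of cell makeup or array quality in this split was not tested. Results that rest on these arrays are given with and without them.

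The members of the AMPA family divided by region. Gria1 and Gria2 were highest in NAc and lowest in VMB, Gria3 was highest in PFC (by a margin over NAc that was not called on the deposited values), and Gria4 ran against the others with its lowest level in NAc. The kainate subunit Grik1 was highest in VMB, Grik5 was lowest there, and Grik2 did not pass the test in any comparison. In bulk tissue, fewer cells of a type and less RNA per cell cannot be told apart. Since different probesets capture RNA with different efficiency, a difference between subunits was read only for its change between regions.

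**Figure D1:**
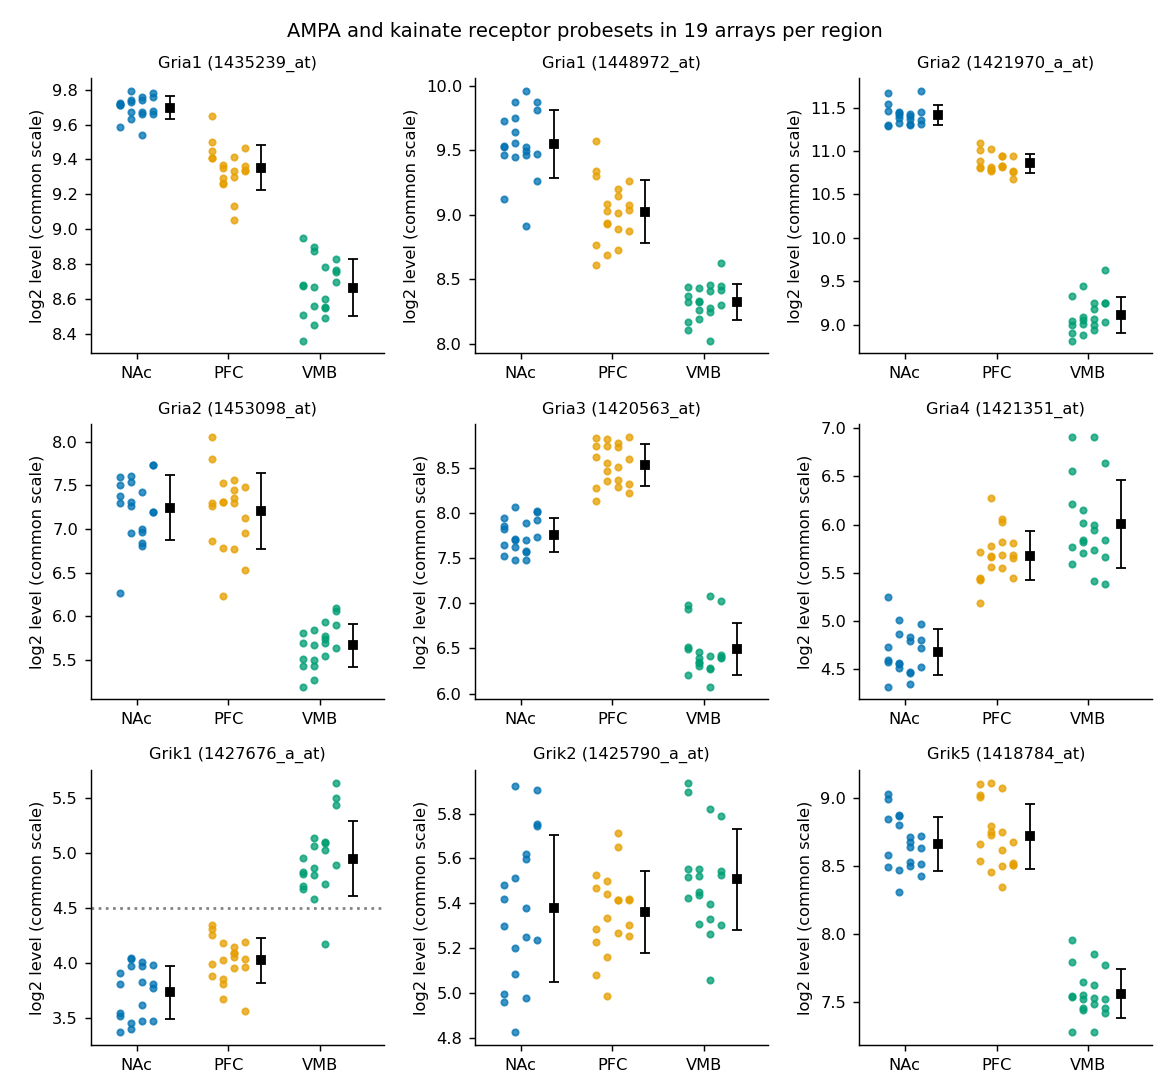
Level of each AMPA and kainate receptor probeset (log2, common scale, 1 point per array) in NAc, PFC and VMB, with mean and SD beside the points (n = 19 per region); the dotted line for Grik1 is the filter of 4.5. Gria1, Gria2 and Grik5 lie lowest in VMB, Gria4 lies lowest in NAc, and 4 VMB arrays form a separate upper cluster for Gria3 and Grik2.

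Gria2 had the largest regional difference among the members. Its leading probeset 1421970_a_at, the brighter of the pair, had a lowest, median and highest common-scale level of 11.29, 11.40 and 11.69 in NAc, 10.68, 10.82 and 11.10 in PFC, compared with 8.81, 9.05 and 9.63 in VMB. The groups did not overlap in any of the 3 comparisons. NAc exceeded VMB by 2.30 ± 0.05 (SE), a 4.94-fold difference, with adjusted p = 2.71e-46 (limma, Benjamini-Hochberg over 19815 probesets). PFC was above VMB, with a VMB − PFC difference of -1.75 (3.36-fold, adjusted p = 4.01e-40 in limma). NAc exceeded PFC by 0.56 with the leading probeset (adjusted p = 6.00e-16, limma). The second probeset, 1453098_at, gave differences of 1.58 for NAc − VMB and -1.54 for VMB − PFC, both called. For NAc − PFC it gave 0.04 with a 95% interval from -0.19 to 0.26 (adjusted p = 0.781, limma), so the probesets of Gria2 disagreed on whether NAc and PFC differ.

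Gria1 encodes the subunit whose insertion accompanies many forms of synaptic potentiation. Levels of 1435239_at were 9.54, 9.71 and 9.79 (lowest, median, highest) in NAc, 9.05, 9.35 and 9.65 in PFC, compared with 8.36, 8.68 and 8.95 in VMB. All VMB arrays lay below all arrays of NAc and of PFC, while NAc and PFC overlapped. The NAc − VMB difference was 1.03 ± 0.04 (SE, 2.05-fold, adjusted p = 1.39e-31, limma). NAc − PFC was 0.35 and VMB − PFC -0.69, both called. Its second probeset, 1448972_at, had the same order with differences of 1.23, 0.52 and -0.70, all called.

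Gria3, an X-linked gene, departed from Gria1 and Gria2 by being higher in PFC than in NAc. Its levels were 7.48, 7.71 and 8.07 (lowest, median, highest) in NAc, 8.13, 8.56 and 8.85 in PFC, compared with 6.08, 6.41 and 7.08 in VMB. The regions did not overlap in any comparison. VMB − PFC was -2.04 ± 0.08 (SE, 4.12-fold, adjusted p = 2.61e-33, limma), and NAc − VMB was 1.26. NAc − PFC was -0.78 (adjusted p = 3.74e-14, limma), but -0.13 on the deposited values, where it was not called (adjusted p = 0.107). Without the 4 VMB arrays that stood apart, VMB − PFC was -2.18 and NAc − VMB 1.40.

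Gria4 encodes a fast-gating subunit typical of some interneurons and of hindbrain and thalamic neurons. Its levels were 4.32, 4.59 and 5.24 (lowest, median, highest) in NAc, 5.19, 5.67 and 6.27 in PFC, compared with 5.38, 5.84 and 6.91 in VMB. NAc was lowest, without overlap with VMB and with a narrow overlap with PFC. NAc − VMB was -1.33 ± 0.10 (SE, 2.51-fold, adjusted p = 7.34e-18, limma) and NAc was 2.00-fold below PFC (adjusted p = 4.41e-13). VMB exceeded PFC by 0.33 (adjusted p = 0.00389, limma), with broad overlap. This last call was lost without the 4 VMB arrays that stood apart, with a difference of 0.13 and adjusted p = 0.153. On the deposited values NAc − PFC was -0.35, NAc − VMB -0.85 and VMB − PFC 0.49, all called. The directions were thus kept, but the sizes depended on the scale. The lowest common-scale NAc level, 4.32, lay under 4.5, the filter on low values, and the NAc median of 4.59 lay close to it. The filter was applied to the deposited values, on which all 19 NAc arrays passed, with a lowest level of 4.66.

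Among the kainate subunits, Grik5 resembled Gria1 and Gria2 in its low VMB level. Levels were 8.31, 8.64 and 9.03 (lowest, median, highest) in NAc, 8.35, 8.68 and 9.12 in PFC, compared with 7.28, 7.53 and 7.96 in VMB. Each VMB array lay below each NAc and PFC array. VMB − PFC was -1.16 ± 0.07 (SE, 2.23-fold, adjusted p = 4.07e-24, limma) and NAc − VMB 1.10 (2.15-fold). NAc − PFC was -0.05 with a 95% interval from -0.19 to 0.08 (adjusted p = 0.445), and 0.61 on the deposited values.

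Grik1 passed the filter on low values, a level of 4.5 on at least 1 array, through VMB alone. It reached 4.5 on 18 VMB arrays, 0 NAc arrays and 0 PFC arrays. Levels were 3.36, 3.80 and 4.04 (lowest, median, highest) in NAc, 3.56, 4.03 and 4.34 in PFC, compared with 4.17, 4.89 and 5.64 in VMB. VMB lay above NAc without overlap and overlapped PFC through 1 low VMB array. NAc − VMB was -1.21 ± 0.08 (SE) and VMB − PFC 0.93, both against levels under the filter. Since the filter kept Grik1 only through its high group, which favours a difference, these values are given as a description and not as a test. The NAc − PFC difference of -0.29 lay between levels under the filter and turned to 0.51 on the deposited values.

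Grik2, which encodes a common subunit of principal neurons, had nearly the same median in all regions. Levels were 4.82, 5.38 and 5.92 (lowest, median, highest) in NAc, 4.98, 5.41 and 5.71 in PFC, compared with 5.06, 5.52 and 5.94 in VMB. All regions overlapped. The 95% interval ran from -0.14 to 0.18 for NAc − PFC, from -0.01 to 0.31 for VMB − PFC and from -0.29 to 0.03 for NAc − VMB, with adjusted p = 0.856, 0.0874 and 0.127 in limma. On the deposited values NAc exceeded PFC by 0.67, VMB exceeded PFC by 0.36 and NAc exceeded VMB by 0.31, all called, so the order of Grik2 across regions depended on the scale.

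**Figure D2:**
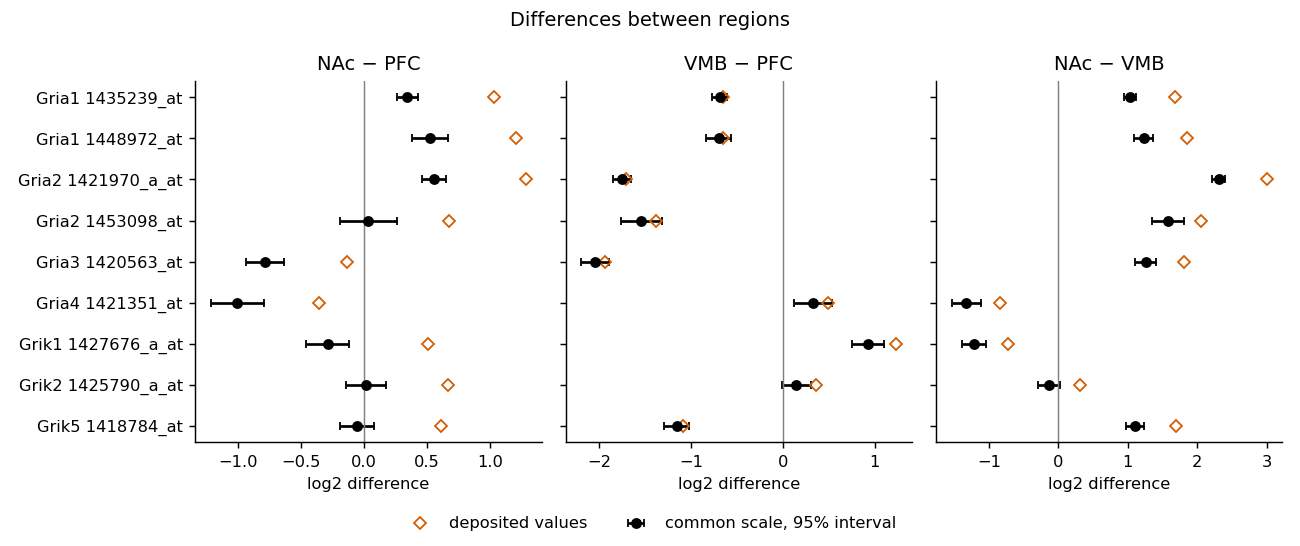
Regional differences of the 9 probesets (log2), as filled points with 95% intervals on the common scale and as open diamonds on the deposited values. Deposited values shift all members toward higher NAc levels, most visibly for NAc − PFC, where Grik1 moves from -0.29 to 0.51 and Grik5 from -0.05 to 0.61.

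Such calls were common across the array. At an adjusted p under 0.01, 6 of 9 member probesets were called for NAc − PFC, where 72.5% of all tested probesets were called. Of these, 3 were higher in NAc (38.6% of all probesets) and 3 lower (33.9% of all). For VMB − PFC 8 were called beside 72.8% of all, 2 of them higher in VMB (37.7% of all) and 6 lower (35.2% of all). Without the 4 VMB arrays that stood apart, 7 were called. For NAc − VMB 8 were called beside 74.7% of all, 6 of them higher in NAc (39% of all) and 2 lower (35.7% of all). These counts include Grik1, which was tested only because VMB reached the filter and which added 1 call to each. Over the 8 other member probesets, 5 were called for NAc − PFC (3 higher, 2 lower), 7 for VMB − PFC (1 higher, 6 lower) and 7 for NAc − VMB (6 higher, 1 lower). On the deposited values 8, 9 and 9 of the 9 were called, beside 92.1%, 76.4% and 88% of all. Groups did not overlap for 2, 5 and 8 member probesets in the same order, beside 21.9%, 23.9% and 23.1% of all probesets, and for 2, 5 and 7 without Grik1. When a difference of more than 1 was required of the test, 0, 3 and 2 member probesets were called, beside 3.62%, 6.47% and 5.77%. Those were both Gria2 probesets and Gria3 for VMB − PFC, and both Gria2 probesets for NAc − VMB. The median size of a difference over the 9 member probesets was 0.35, 0.93 and 1.23, without Grik1 0.43, 0.93 and 1.24, and over all tested probesets 0.28, 0.30 and 0.31.

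Because Gria2 sets the calcium permeability of the AMPA channel, the difference between Gria2 and each other subunit on the same array was compared between regions. This comparison was chosen after the levels were seen. It uses deposited values of leading probesets, in which a shift common to an array cancels, and only its change between regions has meaning. The second probesets of Gria1 and Gria2 were not used. On deposited values the second Gria2 probeset gave 0.68 for NAc − PFC, less than the 1.03 of the leading Gria1 probeset. The order of NAc and PFC in Gria2 minus Gria1 therefore depends on the Gria2 probeset. The log2 difference of Gria2 minus Gria1 had a lowest, median and highest value of 1.55, 1.73 and 2.04 in NAc, 1.32, 1.48 and 1.82 in PFC, compared with 0.14, 0.41 and 0.85 in VMB (n = 19 each). Between PFC and VMB it dropped without overlap, by 1.07 on the log2 scale (permutation p = 1e-05, two-sided, the smallest that 100000 permutations can give).

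Gria2 minus Gria4 showed the widest change, from 6.85 ± 0.25 in NAc through 5.21 ± 0.25 in PFC to 3.01 ± 0.47 in VMB (SD). NAc and VMB differed by 3.85 without overlap (permutation p = 1e-05), and by 3.67 without the 4 VMB arrays that stood apart. Gria2 minus Gria3 was 3.74 ± 0.21 in NAc, 2.32 ± 0.18 in PFC and 2.55 ± 0.32 in VMB. Here, with leading probesets, NAc stood above both others without overlap. PFC and VMB overlapped, with a difference of -0.23 (permutation p = 0.0110), which was -0.35 without the 4 VMB arrays that stood apart. On the common scale these differences had the same signs, and the NAc − VMB change in Gria2 minus Gria4 was 3.63. Relative to Gria2, the signals of Gria1 and Gria4 were thus higher in VMB than in either forebrain region.

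The promoter of Gria4, the AMPA member lowest in NAc, is shown because it was the only promoter window of a member that lay wholly outside the annotated gene. It covers the 250 bases before the start of the gene at chr9:4796235-4796484 on the minus strand of GRCm38.p6 (RefSeq), written 5′ to 3′, with matches to CCAAT in capitals.

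Gria4: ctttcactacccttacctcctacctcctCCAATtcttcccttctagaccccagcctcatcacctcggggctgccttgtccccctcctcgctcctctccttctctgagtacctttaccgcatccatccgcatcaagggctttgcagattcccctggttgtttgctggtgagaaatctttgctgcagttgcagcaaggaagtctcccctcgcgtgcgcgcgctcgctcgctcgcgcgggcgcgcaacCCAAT

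Short motifs were searched on both strands of this window. It held CCAAT, the core of the CCAAT box bound by NF-Y, in 2 places, and 33.9% of 32841 promoter windows of this length held it. It held no match to the GC box GGGCGG, found in 32.7% of windows. Nor did it hold the TATA box TATAAA, found in 12.4%, or the E-box CACGTG, found in 6.02%. The NRF1 core TGCGCA, found in 6.43%, and the cyclic AMP response element TGACGTCA, found in 1.55%, were also not in this window. The window had 58.8% GC bases, against a median of 52.4%. None of the array values measures activity of this sequence.

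Members also varied among mice of 1 region. The leading probeset of Gria1, 1435239_at, had an SD of 0.07 in NAc on the deposited scale, lower than that of all but 2.26% of tested probesets there. Its second probeset, 1448972_at, had an SD of 0.27 there, above that of 86.8% of probesets, so the pair disagreed on how much Gria1 varied. Gria4 had an SD of 0.44 over all 19 VMB arrays and of 0.23 without the 4 that stood apart, where Grik1 had 0.35. Second probesets did not always track the first. For Gria2 the pair correlated at r = 0.685 in PFC (permutation p = 0.00128, rho = 0.689) and 0.576 in NAc (permutation p = 0.0106), but at 0.285 in VMB (permutation p = 0.237). For Gria1 the correlation was 0.365 in NAc, 0.204 in PFC and 0.521 in VMB, with permutation p = 0.122, 0.406 and 0.0217, and the VMB value was 0.323 once the 2 most distant mice were left out.

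Gria3, Gria4 and Grik2 carried the split of VMB arrays. On the deposited scale Gria3 was 6.86, 6.84, 6.82 and 6.96 in VMB replicates 4, 5, 17 and 19, and between 5.94 and 6.39 in the other 15 mice. Gria4 was 6.49, 6.44, 6.79 and 6.80 in these replicates, and between 5.27 and 6.13 in the others. Grik2 was 5.73, 5.86, 5.80 and 5.73, and between 5.04 and 5.46 in the others. The same 4 arrays thus held the 4 highest values of all 3 genes. Gria1, Gria2, Grik1 and Grik5 did not share the split. Grik5, for instance, placed replicates 4 and 5 among its 4 highest VMB levels and replicates 17 and 19 lowest. In PFC, Gria3 was highest in replicate 4 and lowest in replicate 5, so the same numbers did not mark high values there.

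**Figure D3:**
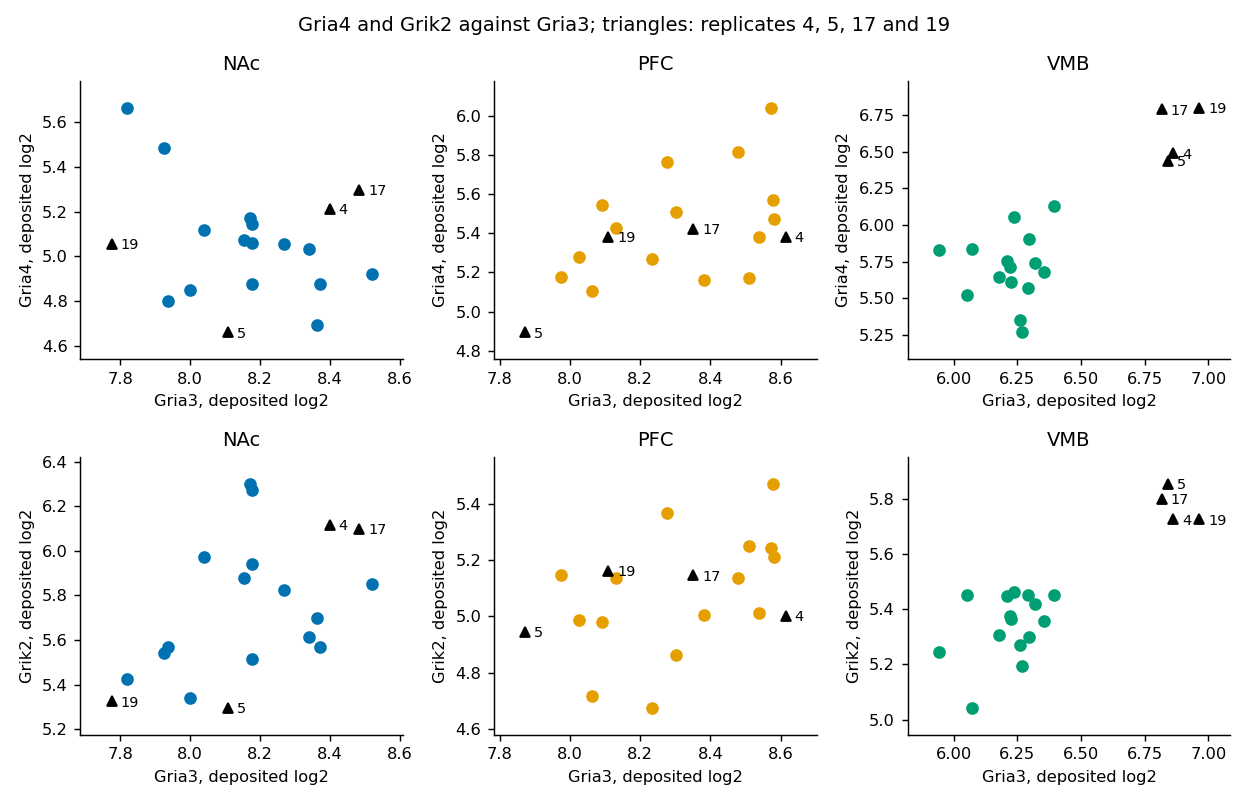
Gria4 (top) and Grik2 (bottom) against Gria3 on deposited log2 values, 1 point per array, in NAc, PFC and VMB, with replicates 4, 5, 17 and 19 drawn as numbered triangles. In VMB the triangles lie apart at Gria3 levels of 6.82 to 6.96, whereas in NAc and PFC they are scattered among the other arrays.

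Pairs of members were compared across mice, with each gene in turn as predictor of all probesets in limma and adjustment over all of them. Over all 19 VMB mice, 3 of 21 pairs were called, those among Gria3, Gria4 and Grik2. These genes called 9.26%, 7.22% and 8.51% of all probesets. Because the arrays fell into separate clusters, correlations of these 3 pairs over all 19 VMB mice are given only among the alternatives below. Among the other 15 VMB mice, Gria3 and Gria4 gave r = 0.0692 (permutation p = 0.806) and rho = 0.107 (p = 0.703). Gria3 and Grik2 gave r = 0.394 (permutation p = 0.144) and rho = 0.256 (p = 0.353). Gria4 and Grik2 gave r = 0.235 (permutation p = 0.400) and rho = 0.231 (p = 0.405). The 3 calls therefore rested on 4 arrays, and limma called 0 of 21 pairs without them, while 2 had an unadjusted permutation p under 0.05. The share of all probesets at that level is not given, so this count is not read as co-variation.

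In NAc and PFC, limma called 0 of 21 pairs each, with 5 and 4 at an unadjusted permutation p under 0.05. With a member as predictor, 17.9% to 52.0% of all probesets in NAc had an unadjusted limma p under 0.05. In PFC that share was 4.79% to 18.5%. As predictors of all probesets in NAc, Grik1 called 20.2%, Grik5 14%, Grik2 1.35% and Gria2 0.0101%, and the other members 0%. The NAc values of Grik1 were all under the filter on both scales, from 3.93 to 4.40 on the deposited one, and bound its level only. In PFC, Grik2 called 0.792%, Gria3 0.459% and Gria2 0.0202%, and the other members 0%. Among pairs of leading probesets, the highest in PFC was Gria2 with Gria3, at r = 0.666 (permutation p = 0.00216), rho = 0.693 (p = 0.00139) and 0.621 once the 2 mice most distant in Gria2 were left out. Its adjusted p was 0.116 with Gria2 and 0.141 with Gria3 as predictor (limma). The second Gria1 probeset had a higher r of 0.676 with Gria3 in PFC (adjusted p = 0.0407, limma, Gria3 as predictor). The leading Gria1 probeset had 0.0391, so this result depended on the probeset. In NAc the highest leading pair was Gria1 with Gria3, at r = 0.629 (permutation p = 0.00388) and rho = 0.652 (p = 0.00318), with 0.536 after leaving out 2 mice and adjusted p = 0.0444 and 0.151 in limma. Both genes also followed the leading component of variation among NAc arrays, at r = 0.580 for Gria1 and 0.533 for Gria3. So did most probesets, with a median size of 0.634, so the pair is not read as particular to the subunits. The second Gria1 probeset had 0.464 with Gria3 there. With leading probesets, Gria1, Gria2 and Gria3 each had a positive r with Grik2 in NAc, of 0.561, 0.555 and 0.499, none of them called. The second Gria1 probeset instead had r = -0.219 with Grik2 there, and the second Gria2 probeset 0.524. Over 21 pairs the median r was 0.243 in NAc and 0.215 in PFC, and 0.136 among the 15 VMB mice.

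**Figure D4:**
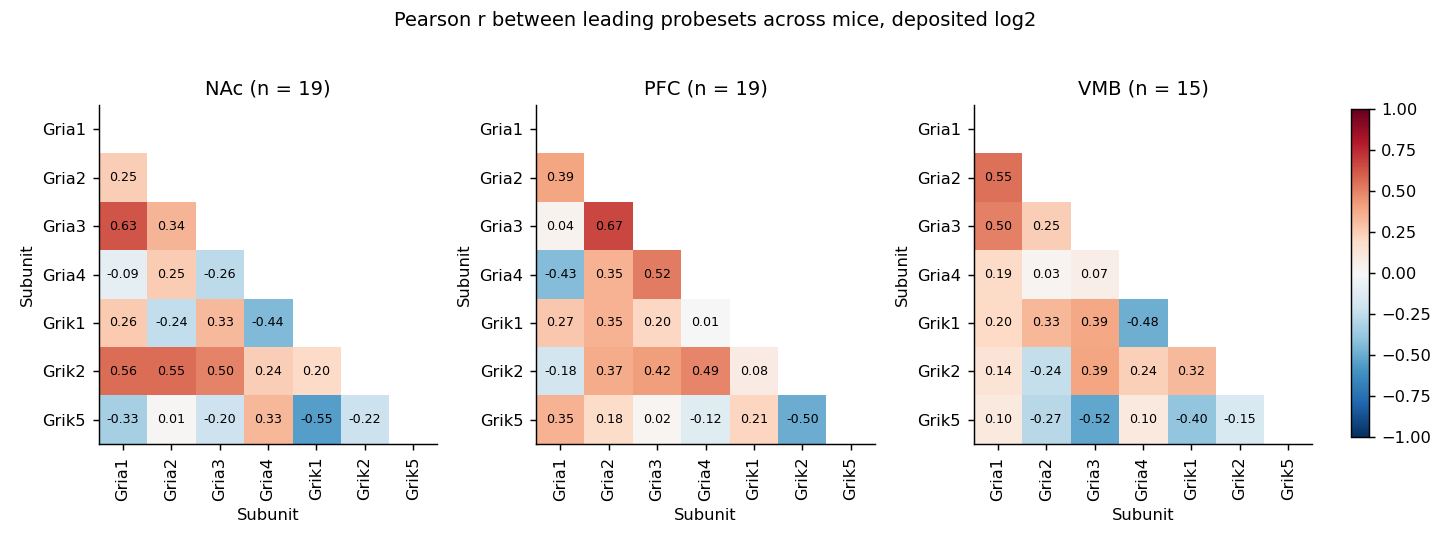
Pearson r between leading probesets of the 7 members across mice on deposited log2 values, for all 19 NAc and 19 PFC arrays and for the 15 VMB arrays left without replicates 4, 5, 17 and 19. Colour runs from blue at -1 to red at 1; the highest r is 0.63 in NAc, 0.67 in PFC and 0.55 in VMB.

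A mouse with a high level of a subunit in 1 region did not have a detectably high level in another. Arrays with the same replicate number were compared for 7 members and 3 pairs of regions, with 18 numbers shared by each pair. The 21 correlations ran from -0.396 to 0.454, with 12 above 0. None had a permutation p under 0.05. A t test of r, adjusted over all probesets, called 0 members, beside 0.00505%, 0.0202% and 0.0101% of all probesets for NAc with PFC, VMB with PFC and NAc with VMB. The highest was Gria2 in NAc and VMB, at r = 0.454 (permutation p = 0.0591) and rho = 0.329 (p = 0.182). The labels do not state that a number marks the same animal in each region.

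Scores of 12 lists of cell type markers were set against the members within each region. In NAc, Grik1 fell and Grik5 rose with the score of 4 choroid plexus and ependyma markers, at r = -0.734 and 0.627 (adjusted p = 7.55e-04 and 0.00688, limma), with all NAc values of Grik1 under the filter. That score called 48.4% of all probesets, and both calls were lost when the leading component of variation among arrays was added as a covariate, or without the 3 NAc arrays farthest along it. That component held 51.2% of the variance in NAc, and the r of Grik1 and Grik5 with it was 0.737 and -0.718. The choroid plexus and ependyma mean was low, from 4.30 to 4.79 in NAc, with Kl under the filter. In PFC and VMB limma called 0 of 108 tests each, with 14 and 17 at an unadjusted p under 0.05.

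Of 69 genes listed as working with these receptors, 46 were measured. Relative to PFC, 12 were higher and 32 lower in VMB (median difference -0.57), beside 37.7% higher and 35.2% lower of all tested probesets. In NAc 8 were higher and 25 lower than in PFC (median -0.21), beside 38.6% and 33.9% of all. Relative to VMB, 31 were higher and 11 lower in NAc (median 0.36), beside 39% and 35.7% of all. Of the 46 genes, Adarb2, Camk2a, Cacng7 and Homer1 had a mean under the filter of 4.5 in at least 1 region. The medians over all tested probesets were 0.02, 0.03 and 0.02. On the deposited values the NAc − PFC split turned to 31 higher and 7 lower, so the direction of that count followed the scale. The VMB − PFC split was 12 higher and 29 lower there, and the NAc − VMB split 38 higher and 6 lower. Without the 4 VMB arrays that stood apart, the 3 splits on the common scale were 12 and 32, 8 and 25, and 30 and 10.

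Auxiliary subunits escort AMPA receptors to the synapse and slow their closing. They were listed with other proteins linked to the receptors, Abhd6, Porcn and Olfm1, and the genes of this list differed in opposite ways. Of 11 measured, 8 were lower (35.2% of all probesets) and 3 higher (37.7% of all) in VMB than in PFC. Abhd6, Porcn and Olfm1 were among the 8. Cacng7, 1 of the 8, was under the filter in VMB. Cacng3, a transmembrane AMPA receptor regulatory protein (TARP), had medians of 8.08 in NAc, 9.44 in PFC and 6.31 in VMB, without overlap, and a VMB − PFC difference of -3.09 (8.54-fold, adjusted p = 5.03e-50, limma). Cacng5, another TARP, was instead lowest in PFC, with medians of 6.60, 5.17 and 6.89 and a VMB − PFC difference of 1.68 (adjusted p = 9.35e-25, limma). Cnih2, the cornichon that prolongs AMPA currents, differed by 1.61 between NAc and VMB and by 0.01 between NAc and PFC.

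Of 4 listed kainate partners, Neto1 and Grik3 were measured. Neto1, the auxiliary subunit that slows kainate receptors, had medians of 8.75 in NAc, 8.01 in PFC and 6.91 in VMB, and NAc − VMB was 1.82 (3.53-fold, adjusted p = 4.84e-36, limma). Grik3, a further kainate subunit, differed less, by -0.30 for VMB − PFC, 0.22 for NAc − VMB and -0.08 for NAc − PFC, the last not called (adjusted p = 0.161). No probeset of Grik4 alone passed the filter.

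Of the RNA editing genes, Adar and Adarb1 were each higher in VMB than in PFC, beside 37.7% of all probesets, and lower in NAc than in VMB, beside 35.7%. Adarb2, also called in both, passed the filter through VMB, with means of 4.05 in NAc, 4.19 in PFC and 4.86 in VMB, and is given as a description. Adarb1, which edits the Gria2 transcript at the site that blocks calcium entry, had medians of 7.61 in NAc, 7.70 in PFC and 8.97 in VMB. Its VMB − PFC difference was 1.32 (2.50-fold, adjusted p = 1.47e-20, limma) and its NAc − VMB difference -1.39, without overlap. Adar was lower in NAc than in VMB by a difference of -0.93, and it was 1 of 2 listed genes, with Ppp3cb, for which the 4 VMB arrays lay above all others. Without those arrays it was -0.74, still called. Editing itself was not measured by these arrays.

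Kinases and phosphatases that act on the subunits were lower in VMB than in PFC for 8 of 9 genes and higher for 0, beside 35.2% and 37.7% of all probesets. Camk2a, the kinase that phosphorylates the Gria1 subunit during potentiation, had medians of 5.42 in NAc, 9.01 in PFC and 4.09 in VMB. Its VMB mean was under the filter of 4.5, and against that level PFC was at least 22.3-fold higher (adjusted p = 2.76e-42, limma). Camk2b exceeded its PFC level by 0.56 in NAc.

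Of 13 scaffold and trafficking genes, 9 were lower and 3 higher in VMB than in PFC, beside 35.2% and 37.7% of all. Homer1, a scaffold of the postsynaptic density, had medians of 6.51 in NAc, 7.11 in PFC and 4.39 in VMB, which is under the filter. Against a level of 4.5, PFC was at least 5.99-fold and NAc at least 3.96-fold higher. Among 6 synaptic organisers, which cluster the receptors from the synaptic cleft, C1ql3 gave -3.49 for VMB − PFC and -2.15 for NAc − PFC. The neuronal pentraxins Nptx1 and Nptx2 were also below PFC in NAc, by differences of -1.46 and -1.41, and Lrrtm1 was above it by 0.63. Cbln1 was higher in VMB than in PFC by 2.64. The vesicular glutamate transporter Slc17a6, which marks subcortical glutamate neurons, gave 4.71 for VMB − PFC (26.2-fold) and -5.00 for NAc − VMB, the widest difference on the list.

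**Figure D5:**
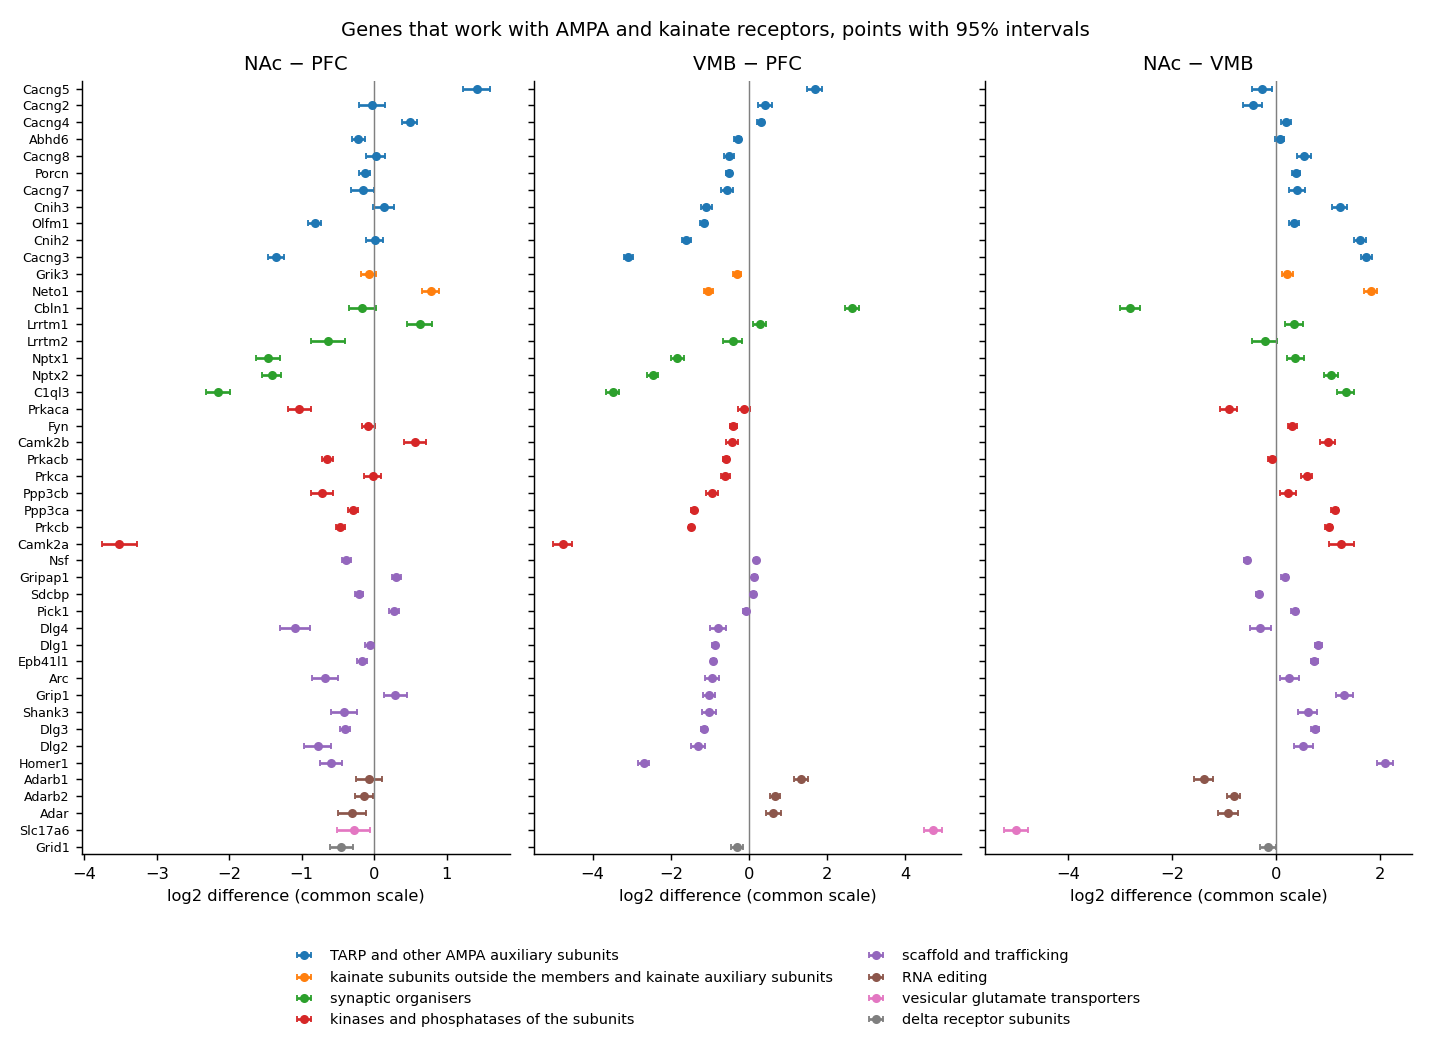
Regional differences of the 46 measured genes that work with AMPA and kainate receptors (log2, common scale, with 95% intervals), coloured by list and ordered within each list by VMB − PFC. Most auxiliary, scaffold and kinase genes lie left of 0 for VMB − PFC, while the 3 RNA editing genes and Slc17a6 lie right of it.

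For each member, the genes with the most similar pattern over the 57 arrays were found among 11341 others, as a description in which regional differences dominate. Gria2 was closest to Syt5, Baiap2 and Tiam2 (each r = 0.989), and Gria1 to Arpp21, Ctdspl and Gria2 itself (r = 0.966, 0.966 and 0.965). Gria3 was closest to Gpm6a, Mapk8 and Homer1 (each r = 0.967), and Grik5 to Mink1, Palm and H1f10 (r = 0.964, 0.963 and 0.963). Gria4 was closest to Gabrb2, Mturn and Kcna6 (r = 0.946, 0.909 and 0.906). Gabrb2, which encodes a GABA-A receptor subunit, also had r = 0.761 with Gria4 after region means were removed, whereas Tiam2 with Gria2 had 0.236. Grik1 was closest to Sh3d19, Mcf2 and Abhd3 (r = 0.930, 0.929 and 0.927). Grik2, with little difference between regions, had its closest genes at lower values, Cfap97, Gpm6b and 6820431F20Rik (r = 0.731, 0.722 and 0.719).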

How the data were processed

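The study took NAc, PFC and VMB from individual mice after two-bottle choice drinking and hybridized biotin-labelled cRNA of each to an Affymetrix array. The deposited values are log2 intensities, which per the submitters' processing notes were made with GCOS and RMA; the array medians differed by region, and the build was not given in the sources used here. Groups came from the sample titles. Probesets under 4.5 on all arrays were removed (2811 of 22626). Regions were compared with limma 3.58.1 in R 4.3.3 on values quantile-normalized over 57 arrays, and variation among mice on the deposited values, with Benjamini-Hochberg adjustment over all tested probesets and calls at an adjusted p under 0.01. Of the probesets, 20380 carry 1 symbol, 691 several and 1555 none, and the leading probeset of a gene is its single-symbol probeset with the highest mean. Permutation p-values are two-sided, from 100000 permutations (numpy 2.4.6).

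All members and all their probesets are named. From the list of genes that work with the receptors, the 4 genes with the largest called difference in each direction per comparison were named, with Grik3 and Grik4, and for each member the 3 genes with the highest r over all arrays. The members and lists were chosen with earlier results of these data known. In simulated data, differences of 0.25, 0.5 and 1 between NAc and PFC were recovered for 66%, 92% and 100% of 50 changed probesets each among 19815, and correlations of 0.7, 0.8 and 0.9 within a region for 16%, 36% and 78%. The simulated probesets varied independently, without the component that held 51.2% of the variance in NAc, so recovery in the real data may differ. The number of arrays limits the precision. Promoter windows came from RefSeq (GRCm38.p6) and were matched for 4 of 7 members by symbol. Alternatives covered scaling, filter, covariates, left-out arrays, ranks and a replicate block.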

Additional observations from a re-analysis of the deposited data

How the results depend on the processing

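The deposited scale reversed 3 differences, to 0.51 for Grik1 and 0.61 for Grik5 in NAc − PFC and to 0.31 for Grik2 in NAc − VMB. Requiring a difference of more than 1 left 0, 3 and 2 member probesets and 717, 1283 and 1144 of all probesets called for NAc − PFC, VMB − PFC and NAc − VMB. Array median subtraction gave -0.11 and leaving out the 3 arrays per region farthest along the first principal component -0.19 for Grik1 in NAc − PFC, neither called. Within-region quantile normalization called 1 NAc pair, Grik1 with Grik5. In VMB, ranks left 0 pairs called, with rho over all 19 mice of 0.556 for Gria3 with Gria4, 0.620 for Gria3 with Grik2 and 0.610 for Gria4 with Grik2, and the first principal component as a covariate lowered the last to r = 0.689, not called. Without VMB replicates 4, 5, 17 and 19, an alternative chosen after seeing the data, as was leaving out the 3 arrays for the region differences, 0 pairs were called, with r = 0.0692, 0.394 and 0.235. The calls on choroid plexus markers in NAc fell to 0 with the covariate and to 0 without the 3 arrays. The cause of these changes was not tested.

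Arrays of 1 replicate number deviated together little, with a mean r of 0.0618, 0.0130 and 0.0837 over 18 shared numbers for NAc with PFC, VMB with PFC and NAc with VMB. With replicate as a random block (correlation 0.0546) Gria4 gave 0.33 for VMB − PFC, still called, and with a fixed replicate block 0.31 (adjusted p = 0.0163, limma), not called. These blocks changed no other call on a member. Under alternatives, 270 values were obtained for the regional differences of member probesets. Of these, 242 kept their direction and their side of the threshold, and 28 did not. The other main results gave 103 values. Of these, 85 kept their direction and their side of the threshold or stayed within 1.5 times, and 18 did not.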
